A study of Danio rerio with 4 samples.

Results

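The genes described here encode serine proteases that sit in the epithelial cell membrane and the Kunitz-type inhibitors that restrain them: *tmprss13b*, *tmprss13a*, *tmprss4a*, *tmprss2*, *st14a* and *st14b* among the proteases, and *spint1a*, *spint1b* and *spint2* among the inhibitors. They were selected by gene symbol, with *tmprss13b* taken by its ID (ENSDARG00000077573), and each of the 9 names matched 1 of the 31901 gene IDs counted. The set was put together with results of these libraries known. *tmprss13b* was already among the largest falls between the genotypes, so the genotype differences of the 9 genes are given as a description, and their p-values are not given.

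The tissue came from adult zebrafish (*Danio rerio*) whose caudal fins had regenerated for 96 hours after amputation. One genotype was *longfin* heterozygous, with a single copy of the dominant *longfin* allele, and the other was homozygous wildtype clutchmates. Fish of both genotypes carried the sp7:eGFP transgene, in which the *sp7* promoter marks osteoblasts, and the tissue was the tip without GFP, distal to the marked cells. Each genotype had 2 libraries, each from the pooled tips of 4 fins, and whether the pools of a genotype were of different clutches or days is not stated, so any p-value measures only the spread between these pools. Reads in genes numbered 19428186 to 23157979 per library. Epithelium and mesenchyme were both present, with 12 of 12 general epithelial genes, 13 of 13 basal epidermal genes and 16 of 17 blastema genes above the low count filter. Of all 31901 gene IDs, 18366 passed it, as did 11 of 15 ionocyte and mucous cell genes and 11 of 18 macrophage and neutrophil genes.

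Membrane serine proteases of this kind are made as inactive precursors, are cut to become active, and then cut proteins at the cell surface and in the spaces between cells. Matriptase, the product of ST14 in mammals, activates the receptor PAR2 and other proteases in epithelia, and it is held in check by HAI-1 and HAI-2, the products of SPINT1 and SPINT2. In zebrafish larvae, loss of *spint1a* gives a disturbed, inflamed epidermis, and this depends on matriptase. In that setting it is the inhibitor gene *spint1a* that guards the integrity of the skin.

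All 9 genes passed the low count filter, with 57 to 5253 reads per library. CPM is the read count relative to library size, scaled for library composition, and compares 1 gene across libraries. Transcript lengths were not used here, so CPM does not rank one gene against another. All 9 fold changes lay below 0 on the log2 scale (longfin heterozygous over wildtype), where 50.3% of the 18366 genes tested did, but 7 of 9 lay below 0 without longfin heterozygous replicate 2. With libraries scaled to general epithelial genes, the median of all genes tested moved to 0.22 and 4 of 9 lay below 0. With and without this scaling, 9 of 9 lay below the median of all genes tested. The scaling shifts all genes by nearly the same amount, so it could hardly change that. Without it, the median was -0.22 over the 9 genes and -0.0015 over all genes tested. In 5 of the 9, both longfin libraries were below both wildtype libraries, as was true of 19.8% of all genes tested. One of the 9, *tmprss13b*, was called lower by the edgeR quasi-likelihood fit (adjusted p over all genes), and 0.294% of all genes tested were called lower. As the set was selected with this contrast in view, these shares are a description only.

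**Figure D1:**
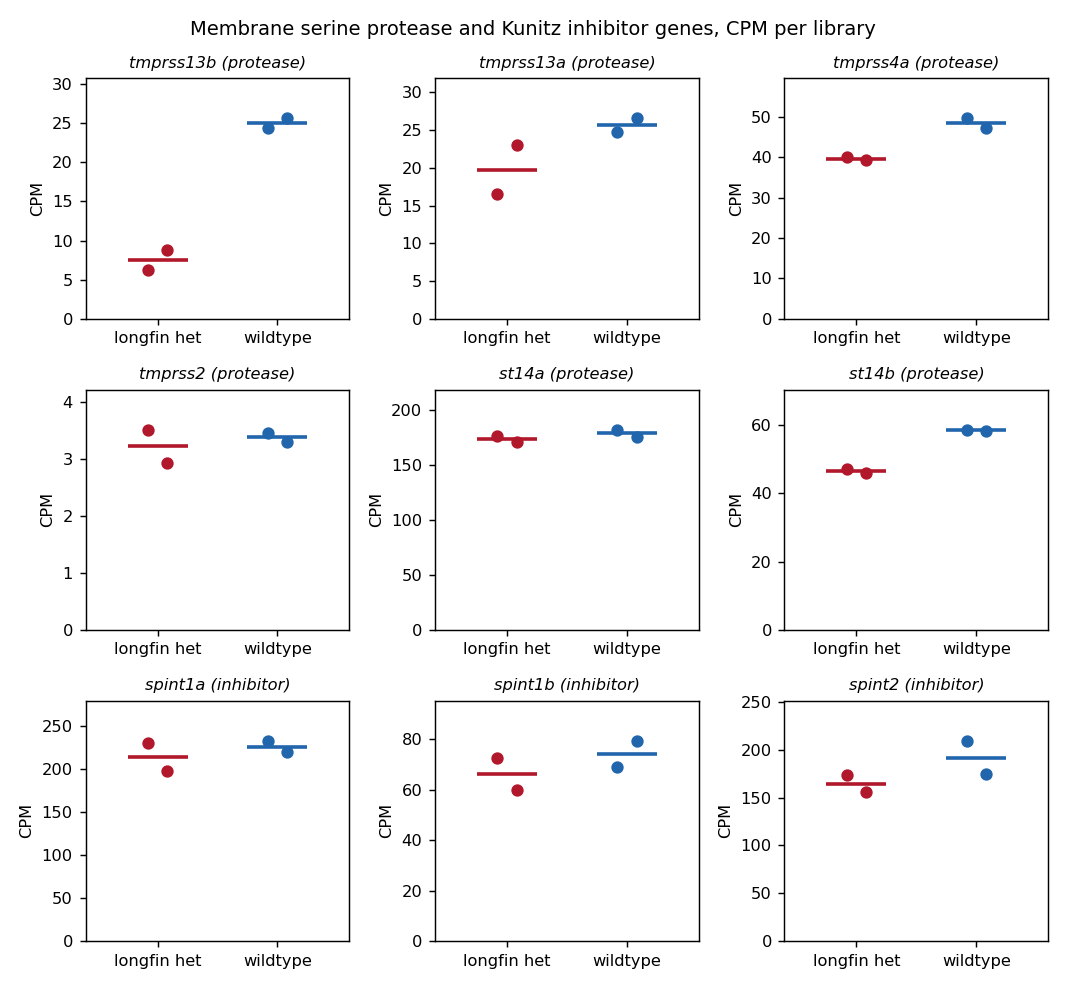
CPM of each of the 9 genes (vertical axis, from 0, with its own range per gene) in the 2 longfin heterozygous and 2 wildtype libraries (dots), with the mean of each genotype as a line. The longfin dots of *tmprss13b* lie far below the wildtype dots, those of *tmprss4a* and *st14b* lie below by a small and even step, and the genotypes overlap for *st14a*, *tmprss2*, *spint1a* and *spint1b*.

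The gene with the widest gap was *tmprss13b*, whose mammalian counterpart is needed for a complete epidermal barrier in mouse. It had 6.21 and 8.84 CPM in longfin tips, from 138 and 172 reads, against 24.4 and 25.6 CPM in wildtype tips, from 451 and 614 reads. Both longfin libraries were low and both wildtype libraries were high, and the genotypes did not come near each other. The log2 fold change was -1.74 ± 0.18 (SE), the 70th lowest of 18366. Over the 4 pairs of a longfin and a wildtype library, the log2 difference lay between -2.04 and -1.46, while the gap between the 2 libraries of a genotype was 0.51 in longfin and 0.07 in wildtype. *tmprss13b* was no longer called without longfin heterozygous replicate 1, where its log2 fold change was -1.50, or without longfin heterozygous replicate 2, where it was -2.01, and in both cases the remaining longfin library is assumed to vary as the wildtype pair does. In bulk tissue, fewer cells of a type and less RNA per cell cannot be told apart.

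*tmprss13a* (ENSDARG00000100969), the other zebrafish copy of TMPRSS13, had a smaller difference. It had 16.5 and 23.0 CPM in longfin tips, against 24.8 and 26.6 CPM in wildtype tips. Both longfin values were the lower ones, but longfin heterozygous replicate 2 came close to wildtype replicate 1. The log2 fold change was -0.38 ± 0.17 (SE), below the gap of 0.48 between the longfin libraries themselves. The value was -0.16 without longfin heterozygous replicate 1 and -0.64 without longfin heterozygous replicate 2, and *tmprss13a* was not called in any setting tried.

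The reads of the pair show the same contrast without any scaling of the libraries. Of all reads in *tmprss13a* and *tmprss13b*, *tmprss13b* took 27.4% in longfin heterozygous replicate 1 (Wilson 95% interval 23.7 to 31.4) and 27.7% in replicate 2 (24.4 to 31.4). In wildtype it took 49.6% (46.4 to 52.9) in replicate 1 and 49.1% (46.4 to 51.9) in replicate 2. The share was nearly equal in the 2 longfin libraries although both copies were lower in replicate 1 than in replicate 2. The intervals cover counting error only, and with 2 libraries against 2 an exact permutation test cannot go below 0.333, so none is given.

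**Figure D2:**
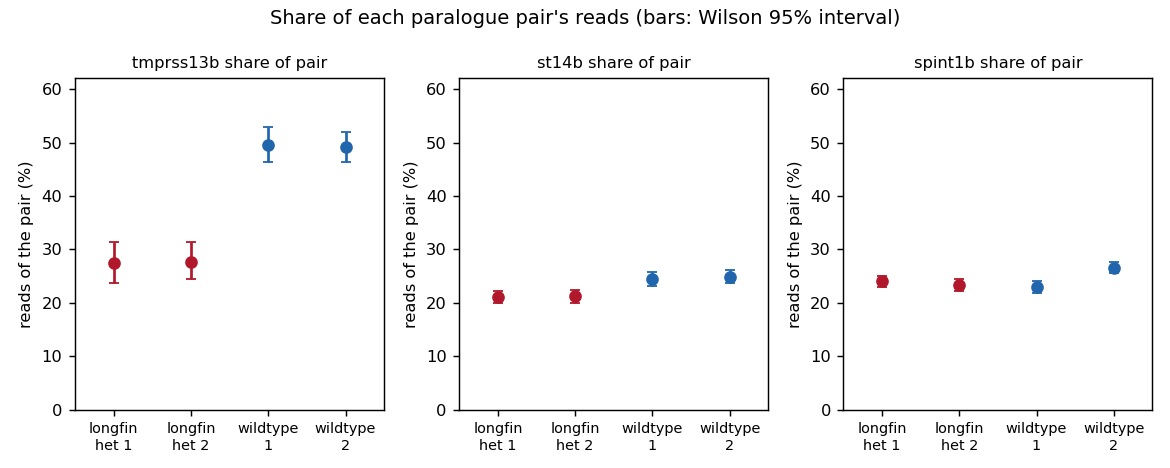
Share of the reads of a paralogue pair (vertical axis, percent) taken by *tmprss13b*, *st14b* and *spint1b* in each library, with Wilson 95% intervals as bars. The *tmprss13b* share is 27.4 and 27.7% in longfin and 49.6 and 49.1% in wildtype, the *st14b* share differs by a few percentage points, and the *spint1b* share does not separate the genotypes.

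In the gene order of RefSeq's GRCz12tu assembly, which is not the authors' build and is used only for neighbours, the span of *tmprss13b* overlaps that of *tmprss4b*, and *tmprss13a* lies near *tmprss4a* with 2 protein-coding genes between them. Both TMPRSS13 copies thus lie near a TMPRSS4 copy. *tmprss4b* (ENSDARG00000012860) is described after its values were seen. It had 29 and 24 reads in longfin and 13 and 30 reads in wildtype libraries, few in each, and its log2 fold change of 0.33 ± 0.40 (SE) was not called. No source used here gives the strand or overlap settings of the counting, so how reads from any shared stretch of *tmprss13b* and *tmprss4b* were assigned is uncertain.

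*tmprss4a* (ENSDARG00000103117) encodes a membrane protease whose human counterpart is known from invasive epithelial tumours. It had 40.0 and 39.4 CPM in longfin tips, against 49.7 and 47.3 CPM in wildtype tips. The genotypes did not overlap, and the libraries of each genotype lay close together. Its log2 fold change was -0.29 ± 0.09 (SE), with pairwise differences of -0.33 to -0.24 and gaps within a genotype of 0.02 and 0.07. It was not called over all genes.

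*tmprss2* (ENSDARG00000098686), known in human for its activity in prostate and airway epithelium, was counted with few reads. It had 3.51 and 2.93 CPM in longfin tips, from 78 and 57 reads, against 3.46 and 3.30 CPM in wildtype tips, from 64 and 79 reads. The longfin libraries lay on either side of the wildtype libraries. The log2 fold change of -0.06 ± 0.23 (SE) was smaller than its error, and no difference was detected with these few reads.

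The matriptase genes come next. *st14a* (ENSDARG00000061173), the copy studied in the zebrafish epidermis, had 176 and 171 CPM in longfin tips, against 182 and 176 CPM in wildtype tips. The values overlapped, and the log2 fold change was -0.04 ± 0.08 (SE). *st14b* (ENSDARG00000044655) had 47.2 and 46.0 CPM in longfin tips, against 58.7 and 58.3 CPM in wildtype tips. Here the genotypes were apart and the libraries of each genotype nearly equal. Its log2 fold change was -0.33 ± 0.09 (SE), with pairwise differences of -0.35 to -0.31 and gaps within a genotype of 0.04 in longfin and 0.01 in wildtype. *st14b* was not called over all genes in edgeR's test.

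Of the reads in *st14a* and *st14b*, *st14b* took 21.1% and 21.2% in longfin tips, against 24.4% and 24.9% in wildtype tips. The Wilson 95% intervals ran from 20.0 to 22.5% over the longfin libraries and from 23.1 to 26.1% over the wildtype libraries. A further gene carries the symbol *st14* without a letter (ENSDARG00000100088), and it is described after its values were seen. It had 196 and 224 CPM in longfin tips, against 210 and 256 CPM in wildtype tips, so the genotypes overlapped. Its log2 fold change was -0.15 ± 0.12 (SE), and it was not called.

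The inhibitor genes showed no call either. *spint1a* (ENSDARG00000102332), which encodes the HAI-1 copy that guards the larval epidermis, had 230.0 and 197 CPM in longfin tips, against 233 and 219 CPM in wildtype tips. Longfin heterozygous replicate 1 lay between the wildtype values and replicate 2 below them, and the log2 fold change was -0.08 ± 0.10 (SE). *spint1b* (ENSDARG00000012467), the other HAI-1 copy, had 72.6 and 60.0 CPM in longfin tips, against 69.1 and 79.4 CPM in wildtype tips. The values overlapped and the log2 fold change of -0.16 ± 0.12 (SE) was within the gaps of 0.28 and 0.20 between libraries of a genotype. *spint1b* took 24.0% and 23.3% of the reads of the *spint1a* and *spint1b* pair in longfin libraries, against 22.9% and 26.6% in wildtype libraries, so the wildtype libraries differed more from each other than the longfin ones.

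*spint2* (ENSDARG00000069476) encodes HAI-2, an inhibitor of matriptase and of its activating partner prostasin in mammals. It had 173 and 156 CPM in longfin tips, against 210 and 175 CPM in wildtype tips. The longfin values were both lower, but longfin heterozygous replicate 1 and wildtype replicate 2 differed by only 0.01 on the log2 scale. The log2 fold change of -0.22 ± 0.11 (SE) was below the gap of 0.27 between the wildtype libraries.

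**Figure D3:**
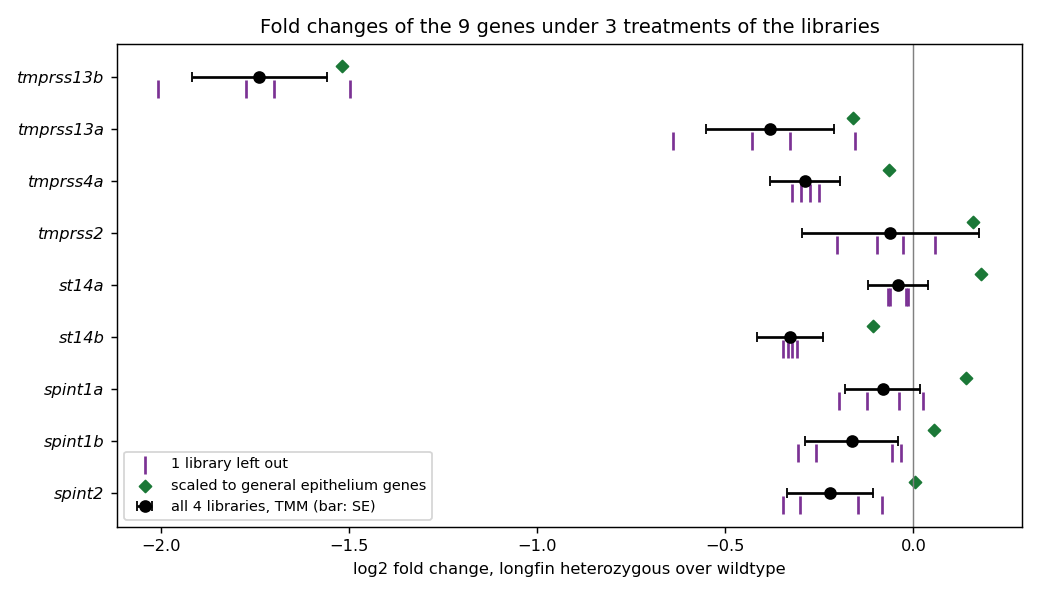
Log2 fold change of each gene, longfin heterozygous over wildtype (horizontal axis), fitted to all 4 libraries (dots, bars give the SE), with 1 library left out (ticks) and with libraries scaled to general epithelium genes (diamonds). *tmprss13b* lies between -2.01 and -1.50 throughout, and the diamonds lie to the right of the dots for every gene because that scaling moved the median of all genes tested to 0.22.

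Summed over the 6 proteases, longfin tips had 289.6 and 291.3 CPM, against 343 and 337 CPM in wildtype tips. The sums of the 2 libraries of a genotype were close, and the genotypes did not overlap on this scale. The sum includes *tmprss13b*, selected with its fall known. Summed over the 3 inhibitors, longfin tips had 476 and 413 CPM, against 512 and 473 CPM in wildtype tips, and here the genotypes overlapped. The ratio of summed inhibitor CPM to summed protease CPM was 1.64 and 1.42 in longfin libraries, against 1.49 and 1.41 in wildtype libraries, so the balance of the sums did not separate the genotypes. *tmprss13b* was 2.14% and 3.04% of the protease reads in longfin libraries, against 7.11% and 7.61% in wildtype libraries. *st14a* was 60.8% and 58.7% of the protease reads in longfin, against 53.1% and 52.2% in wildtype libraries. A share also moves with the other proteases, and the CPM values of *st14a* itself overlapped between the genotypes. The gene *st14* without a letter is left out of these sums, shares and ratios, which would differ with it. It had 4343 and 4364 reads in longfin, against 3885 and 6142 reads in wildtype libraries.

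The summed level of epithelial genes also differed between the genotypes. Summed CPM of 12 general epithelial genes, with *epcam*, *cdh1* and simple keratins among them, was 6517 and 6455 in longfin, against 7767 and 7373 in wildtype libraries. The largest values in that sum were those of 2 keratin genes. Mean CPM of *krt18a.1* was 1960 in longfin and 2363 in wildtype, and that of *krt8* was 1260 and 1665. On the log2 scale *epcam* stood at 0.0054 and *cldni* at -0.0103, and 8 of the 12 lay below 0. These 4 genes were picked out after their values were seen. Of these 12, edgeR called 1 higher over all genes (ELF3, an epithelial transcription factor gene) and 0 lower, where it called 0.109% of all genes tested higher and 0.294% lower. An unadjusted p under 0.05 was found for 2 higher and 6 lower, where 3.65% of all genes tested were higher and 5.82% lower. DESeq2 called 3, while limma voom called 1. The 3 were ELF3 and, as lower, the splicing regulator gene ESRP1 (-0.42) and the keratin gene *krt8* (-0.40), the last 2 named after their values were seen. ESRP2 of the same list, also named after its values were seen, stood at 0.25, with both longfin libraries above both wildtype libraries. Of all 18366 genes tested, DESeq2 called 291 (77 higher, 214 lower) and limma voom called 60 (15 higher, 45 lower). The median log2 fold change of the 12 was -0.21. Both longfin libraries were below both wildtype libraries in 7 and above both in 3. Of all genes tested, 19.8% were below in this way and 20.0% above. Summed CPM of the 14 superficial and intermediate epidermal genes was 9967 and 10860 in longfin, against 13120 and 13710 in wildtype libraries. The largest value in that sum was that of *krt91*, at 4210 and 4464 CPM in longfin and 5111 and 5933 CPM in wildtype. Of these 14, 2 fell and 0 rose in edgeR's test (the barrier transcription factor gene KLF4 and the desmosomal gene *pkp3a* fell), with a median of -0.33. An unadjusted p under 0.05 was found for 8 lower and 0 higher. Both longfin libraries were below both wildtype libraries in 10 and above both in 1. DESeq2 called 4, adding the cornified envelope gene PPL (-0.51) and *lye* (-0.66), both lower and named after their values were seen, and limma voom called 2. The part of these shifts in the values of the proteases and inhibitors was not tested. The ratios given next cannot test it, because *krt18a.1* and *krt8* weigh most in the general epithelial sum and were themselves lower in longfin.

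For every 100 CPM of general epithelial genes, the 9 genes together had 11.7 and 10.9 CPM in longfin libraries, against 11.0 and 11.0 CPM in wildtype libraries. On that scale the 9 genes as a sum did not separate the genotypes. The 6 proteases as a sum did not either, with 4.44 and 4.51 CPM per 100 in longfin, against 4.42 and 4.57 in wildtype libraries. *tmprss13b* had 0.0953 and 0.137 CPM per 100 in longfin, against 0.314 and 0.348 CPM per 100 in wildtype libraries, so its gap was still there. The fit was also scaled to these epithelial genes, a choice made after the values were seen. The median log2 fold change of all genes tested then moved to 0.22 and that of the 9 genes to 0.0032. Such a scaling shifts all genes by nearly the same amount, so the 9 genes stayed below the all-gene median by construction. The log2 fold change of *tmprss13b* was then -1.52 and it was still called, that of *tmprss13a*, *tmprss4a* and *st14b* lay between -0.16 and -0.07, and the other 5 genes were above 0 but below the all-gene median of 0.22.

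Lists for other cells of the tip held 0 genes called by edgeR. The 13 basal epidermal genes summed to 18850 and 19260 CPM in longfin, against 18880 and 20110 CPM in wildtype libraries. The largest value in that sum was that of *krt5*, at 9094 and 10020 CPM in longfin and 9217 and 11850 CPM in wildtype. Of the 13 genes, 0 were called. At an unadjusted p under 0.05 there were 1 higher and 2 lower, and the list had a median log2 fold change of 0.05. The blastema genes summed to 53220 and 54530 CPM in longfin, against 50960 and 43540 CPM in wildtype libraries. The largest value in that sum was that of *col1a1a*, at 33000 and 31740 CPM in longfin and 30810 and 22320 CPM in wildtype. Of the 16 blastema genes tested, 0 were called. An unadjusted p under 0.05 was found for 6 higher and 1 lower, where 3.65% of all genes tested were higher and 5.82% lower, with a median of 0.21. Ionocyte and mucous cell genes summed to 416 and 410 CPM in longfin, against 516 and 462 CPM in wildtype libraries, with 0 of 11 called. An unadjusted p under 0.05 was found for 0 higher and 3 lower, with a median of -0.15. The mucous cell factor gene SPDEF had 0 reads in all 4 libraries. AGR2 of the same list had 172 and 102 reads in longfin and 113 and 123 reads in wildtype libraries. SPDEF and AGR2 were named after their values were seen. Macrophage and neutrophil genes summed to 247 and 302 CPM in longfin, against 243 and 303 CPM in wildtype libraries, with 0 of 11 called. An unadjusted p under 0.05 was found for 1 higher and 1 lower, and 1 entry of this list was not matched. The neutrophil gene *lyz* had 0 reads in every library. LCP1 of the same list had 43.9 and 59.3 CPM in longfin, against 40.4 and 54.1 CPM in wildtype libraries. *lyz* and LCP1 were named after their values were seen. In these 4 lists limma voom called 0 genes. DESeq2 called 1 in the basal (*col17a1a*), 1 in the blastema (*msx2b*) and 1 in the ionocyte and mucous cell list (*muc5.2*), named after their values were seen. It called 0 in the macrophage and neutrophil list, and 291 of all 18366 genes tested. In the edgeR fit the log2 fold change was -0.81 for *col17a1a*, 0.71 for *msx2b* and -2.93 for *muc5.2*. *muc5.2* had 6 and 6 reads in longfin and 55 and 39 reads in wildtype libraries.

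Genes around the membrane proteases were read from lists of their relatives, their pathway and other inhibitors. Of 11 tested relatives among serine proteases, 0 were called by edgeR, DESeq2 or limma voom, where edgeR called 0.403% of all genes tested. Of these 11, 0 had an unadjusted p under 0.05, where 3.65% of all genes tested were higher and 5.82% lower. Their median log2 fold change was -0.07. Some had few reads, such as *tmprss15*, named after its values were seen, with 14 and 11 in longfin and 4 and 9 in wildtype libraries. PRSS35 (ENSDARG00000100691) stood at 0.02, the fibroblast activation protease gene *fap* at 0.09 and *prss23* at -0.20 on the log2 scale. The other PRSS35 entry (ENSDARG00000059081), named after its values were seen, stood at -0.40, with both longfin libraries below both wildtype libraries. Several membrane proteases, named after their values were seen, were hardly present. *tmprss3a* had 7 and 7 reads in longfin and 1 and 3 reads in wildtype libraries, *tmprss5* had 2 and 3 against 3 and 9, and *tmprss12* had 0 in all 4 libraries.

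Of 35 tested genes of the matriptase pathway (its substrates, activators and the signalling genes downstream of PAR2), 0 were called by edgeR, DESeq2 or limma voom. At an unadjusted p under 0.05, 0 were higher and 3 lower, where 3.65% of all genes were higher and 5.82% lower, and the median log2 fold change was -0.04. The adhesion gene *epcam*, whose product matriptase cuts in mammals, had 570.4 and 631 CPM in longfin tips, against 584 and 613 CPM in wildtype tips, and the genotypes overlapped. The gelatinase gene MMP9 stood at 0.10 and the proprotein convertase gene FURIN (ENSDARG00000062909) at -0.09 on the log2 scale. The 3 lower genes, named after their values were seen, were a PAR2 receptor gene (F2RL1, ENSDARG00000077540, -0.34), a thrombin receptor gene (F2R, ENSDARG00000087469, -0.92) and the G protein gene GNA13 (ENSDARG00000073765, -0.24). The other F2RL1 copy (ENSDARG00000068856), also named after its values were seen, stood at 0.05. The other GNA13 entry (ENSDARG00000037924) stood at 0.06. The other tested F2R entries stood at -0.33, 0.25, -0.67 and -0.45. None of these was under that p, and they too were added after their values were seen.

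Of 20 tested Kunitz, serpin and related inhibitor genes, 0 were called by edgeR, with a median log2 fold change of -0.08. An unadjusted p under 0.05 was found for 2 higher and 3 lower genes, where 3.65% of all genes tested were higher and 5.82% lower. The Kunitz domain gene APLP2 stood at -0.12, and the collagen chaperone genes with the symbol SERPINH1 at 0.51 (ENSDARG00000019949) and -0.19 (ENSDARG00000075954). Others under that p, named after their values were seen, were RECK (0.38), a membrane inhibitor of metalloproteinases, *serpinb14* (-0.44) and TFPI2 (-0.94), a Kunitz inhibitor. TFPI2 had 4.01 and 3.34 CPM in longfin, against 7.30 and 6.89 CPM in wildtype tips. Over the 3 lists together, DESeq2 called 1 gene and limma voom called 0, where they called 291 and 60 of all 18366 genes tested.

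**Figure D4:**
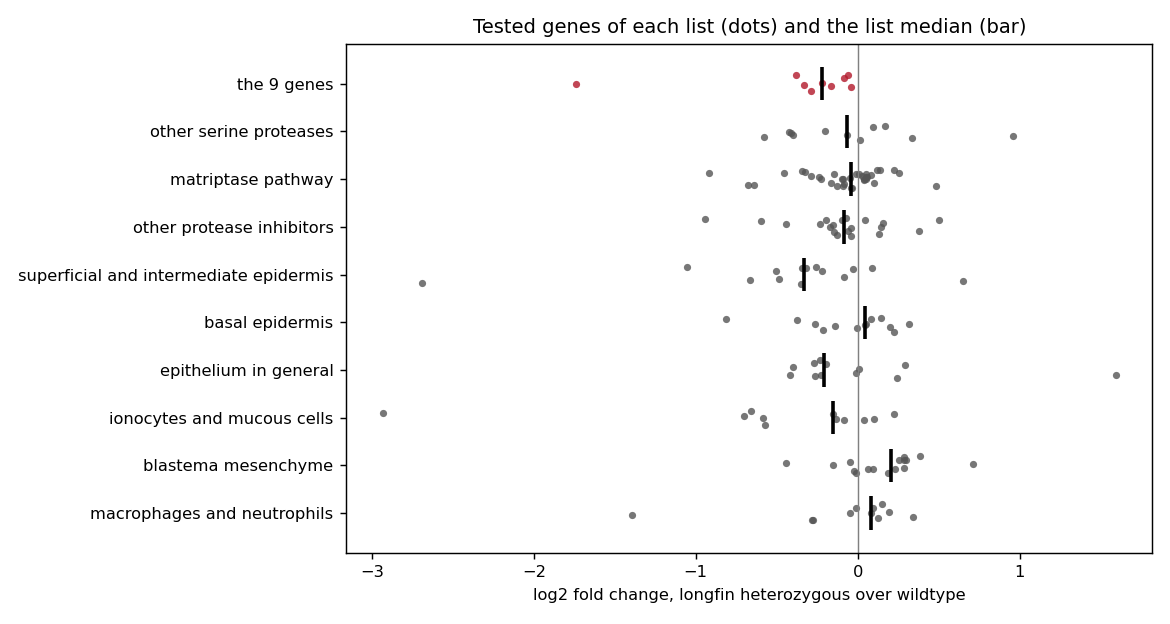
Log2 fold change, longfin heterozygous over wildtype (horizontal axis), of every tested gene (dots) in the 9 genes, the 3 lists of relatives and pathway genes and the 6 cell type lists, with the median of each as a bar. The medians are -0.22 for the 9 genes, -0.33 for superficial and intermediate epidermis, -0.21 for general epithelium and 0.21 for blastema mesenchyme.

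The genes most like *tmprss13b* over the 4 libraries were found by Euclidean distance between log2 CPM values centred on each gene's mean, among 9967 genes with a mean of at least 10 CPM. The nearest were MIDN (distance 0.367), which encodes the midnolin protein of proteasomal degradation, the helicase gene *helz2a* (0.427), the metalloproteinase gene ADAMTS8 (0.429), the membrane protein gene PMP22 (0.446) and ENSDARG00000099508 (0.450). MIDN had 249.8 and 293 CPM in longfin tips, against 775 and 724 CPM in wildtype tips. Among the other members measured this way, *tmprss13a* was nearest at a distance of 1.36 and *st14a* farthest at 1.76. With 4 libraries such likeness mostly restates the size of the genotype gap, and it is a description only.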

How the data were processed

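Per the labels' protocols, RNA was extracted with TRIzol and prepared with a stranded mRNA kit from Kapa. TopHat2, HTSeq and the build GRCz11 (danRer11) are named, per the submitters' processing notes. Versions, annotation, strand setting and overlap mode: not given in the sources used here. Deposited values are raw read counts per Ensembl gene ID. HTSeq's unassigned classes and an unnamed row equal to the gene total were left out. HTSeq's class for alignments that were not unique held 28.7 to 41.9% of each library's summed counts, genes and unassigned classes together. The class for reads not aligned was 0 in each library, so these are not shares of all reads sequenced.

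Counts of all 4 libraries were fitted with edgeR 4.0.16 in R 4.3.3 (filterByExpr with minimum count 10 and minimum total 15, TMM, robust glmQLFit, two-sided glmQLFTest, no replicate term), with Benjamini-Hochberg adjustment over 18366 genes and a threshold of 0.05. The fit was tested on simulated data, which had less spread between libraries than these data. CPM uses the TMM-scaled library size. Shares have Wilson 95% intervals. A table pairing Ensembl IDs with symbols named 29178 of 31901 IDs, and a list entry without a match was matched without its paralogue letter. In the 3 pathway lists 11 of 83 entries were not matched.

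The members and lists were chosen with earlier results of these data known. Named genes were the members, called list genes (with none called, the 3 with the highest CPM), and the 5 nearest to the member with the widest gap. Others are said to be named after their values were seen. Alternatives were other scalings, filters and tests (DESeq2 1.42.0, limma 3.58.1), a replicate block and leaving out each library. Levels per length were planned but not run, because transcript lengths were not used here. Protein sequences were not used here. The values of 1 gene of the inhibitor list are not reported here.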

Additional observations from a re-analysis of the deposited data

How the results depend on the processing

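*tmprss13b* was called lower under all 10 settings that kept all 4 libraries, with a log2 fold change of -1.77 to -1.52. Its direction held in every setting. These settings reuse the counts in which its fall was already known, so they show only how the processing moves the value and lend no further support. The 1 member called became 2 with the replicate number as a block, which added *st14b*, and lay between 0 and 1 with a library left out. Genes called overall numbered 74 (20 higher, 54 lower), but 219 with library size only, 130 without the low count filter, 291 with DESeq2's Wald test and 794 with the replicate block. With 1 library left out they lay between 1 (without longfin heterozygous replicate 2) and 163, the higher number without replicate 2 of wildtype. Scaling to the general epithelium genes, added after seeing the data, gave 157 calls, 106 higher and 51 lower. Of the pathway genes 0 were called at first, 1 with library size only, without the low count filter and with DESeq2, and 6 with the block. With the epithelial scaling 1 was also called, but it was a different gene, RECK. The causes were not tested.

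The epithelial scaling moved the median of all genes to 0.22, shifting all genes by nearly the same amount. The log2 fold change turned to 0.16 for *tmprss2*, 0.18 for *st14a*, 0.14 for *spint1a*, 0.055 for *spint1b* and 0.0032 for *spint2*. Each log2 fold change was still below that median, which such a shift could hardly alter. With a library left out it lay between -0.20 and 0.0588 for *tmprss2* and between -0.20 and 0.0261 for *spint1a*, above 0 only without longfin heterozygous replicate 2. The replicate numbers are not said to pair the libraries. Same-numbered deviations from the genotype means correlated at 0.311, from 1 such pair of pairs, so the block is a hint only. Levels per length were not run. Depth limits *tmprss2* most, with 57 to 79 reads per library.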
